A study of Mus musculus with 6 samples.

Results

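The genes described here are 10 mouse genes of the Notch pathway, chosen by name: the receptors Notch1, Notch2 and Notch3, the ligands Jag1, Jag2 and Dll1, the target genes Hes1, Hey1 and Nrarp, and the receptor-modifying enzyme Lfng. They were matched by Entrez identifier among the 36528 genes listed in each library, and all 10 passed the filter on low counts and were tested. The RNA came from skin cells sorted as positive for CD49f and CD34 and negative for GFP, the surface profile of bulge stem cells of the hair follicle. The DT group received diphtheria toxin and the saline group received NaCl, with 3 libraries each. All mice of both groups were Lgr5-DTReGFP, so the toxin receptor and the GFP reporter are driven by Lgr5, and the sort kept cells that were negative for the reporter. Age, sex, strain background, toxin dose, the interval to collection and whether each library was 1 animal are not given in the labels, and no toxin-treated group without the receptor was analysed here. If libraries of a group share animals, the p-values measure technical spread only.

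Notch receptors are cleaved when a ligand of the Jagged or Delta-like families on a neighbouring cell binds them. The freed intracellular part enters the nucleus, joins the DNA-binding protein RBPJ and a Mastermind coactivator, and turns on genes such as Hes1, Hey1 and Nrarp. In skin the pathway is known for promoting the differentiation of suprabasal keratinocytes and for keeping follicle cells in the hair lineage. The comparison asks how the levels of these genes differ in CD34-positive cells between toxin-treated and saline-treated mice.

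The libraries held 15300755 to 25558859 reads in genes. Levels are given as TMM-scaled CPM, a read count relative to library size, for comparisons between libraries, and as the authors' size-factor-adjusted RPKM, which also divides by gene length, for comparisons between genes. The bulge markers Krt15 and Cd34 were abundant: Krt15, the bulge keratin, stood at 33362 ± 9506 CPM in DT and 34813 ± 6584 CPM in saline, and Cd34 at 2348 ± 402.8 CPM in DT and 2804 ± 354.5 CPM in saline (SD, n = 3 each). Of 11 bulge markers tested 5 fell (Sox9, Lhx2, Nfatc1, Col17a1 and Lgr5) and 1 rose (Krt14, log2 1.78), where 11.9% of all genes tested were lower and 17.2% higher. Lgr5, the gene that drives the receptor, fell to 7.11 ± 0.143 CPM in DT, against 24.0 ± 7.20 CPM in saline (log2 -1.76, edgeR adjusted p = 0.000864). On the second principal component, saline library 1 stood apart at 56.9, against -30.7 and -34.5 for saline libraries 2 and 3. Within its group this library held the highest level of 7 of the 10 Notch genes, and DT library 1 also held the highest level of 7 of 10 within the DT group. The shares of all genes for which these libraries were highest were not computed.

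The upstream sequence of Jag1 is shown because Jag1 was the gene that passed the test, that of Notch2 because its level relative to Notch1 separated the groups, and that of Lfng because it was the only promoter of these genes with a core RBPJ match. Each run is the 250 bases before the start site on the gene's strand, from RefSeq (GRCm38.p6). Jag1 lies on the minus strand at chr2:137116521-137116770, Notch2 on the plus strand at chr3:98013288-98013537 and Lfng on the plus strand at chr5:140607091-140607340. Capitals mark matches, on either strand, to TGGGAA (the RBPJ core), CACGTG (the E box), CACGAG (a form of the N box) and CACGCG (the class C site). Hes and Hey factors bind N box and class C sites. Other forms of the N box were not searched.
Jag1: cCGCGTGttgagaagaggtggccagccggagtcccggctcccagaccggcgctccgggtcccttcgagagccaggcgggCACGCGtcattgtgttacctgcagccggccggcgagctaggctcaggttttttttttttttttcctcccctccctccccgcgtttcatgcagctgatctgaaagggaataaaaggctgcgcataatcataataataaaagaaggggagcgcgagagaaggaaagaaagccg
Notch2: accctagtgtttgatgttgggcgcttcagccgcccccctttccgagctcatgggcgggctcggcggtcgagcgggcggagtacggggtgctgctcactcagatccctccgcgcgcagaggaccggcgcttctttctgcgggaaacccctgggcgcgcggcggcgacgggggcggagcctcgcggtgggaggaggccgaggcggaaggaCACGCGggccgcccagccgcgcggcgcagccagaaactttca
Lfng: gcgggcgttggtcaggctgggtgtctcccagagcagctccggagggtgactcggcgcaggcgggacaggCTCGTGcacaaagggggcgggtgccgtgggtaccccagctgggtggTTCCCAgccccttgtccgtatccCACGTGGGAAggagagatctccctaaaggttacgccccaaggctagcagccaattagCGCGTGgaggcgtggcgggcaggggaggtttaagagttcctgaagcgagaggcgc

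RefSeq promoters matched 8 of the 10 genes, all but Hes1 and Hey1. The RBPJ core was found in 1 of the 8, Lfng, and in 21.6% of all 32851 promoter windows of that length. Lfng held 2 such cores, which began 135 and 108 bases before the start site, and the second overlapped an E box match by a pair of letters. Matches to CACGAG or CACGCG were found for 5 of the 8 genes (Notch2, Notch3, Jag1, Dll1 and Lfng) and in 12.2% of all windows. The E box was found for Nrarp and Lfng and in 6.02% of all windows. The counts for these genes are by gene, and Dll1 had 2 windows, 1 of them with a match. The shares of all promoters are by window and were not matched for base composition, so no enrichment can be read from them. A match describes letters in the window, not binding.

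Jag1 was the most abundant of the 10 genes per length in both groups, and the only one that passed the main edgeR test between them. Its level was 451, 541 and 447 CPM in DT libraries 1 to 3, against 797, 681 and 666 CPM in saline libraries 1 to 3. Every DT library lay below every saline library. Jag1 (Entrez 16449, chromosome 2 from 137081451 to 137116520, GRCm38.p6), the ligand Jagged1, fell by 0.57 on the log2 scale (SE 0.14, 95% interval -0.88 to -0.27, edgeR quasi-likelihood test adjusted p = 0.0116), which left 67.2% of the saline mean. Without DT library 3 its adjusted p was 0.0620 (log2 -0.55). The submitters' sample numbers begin in 2 ways. Among the 4 libraries that share the commoner beginning, Jag1 had a log2 fold change of -0.57 with adjusted p = 0.113, and between the remaining DT and saline library the log2 ratio was -0.58, with no test.

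Of the 10 genes, 1 was lower and 0 were higher in DT by edgeR (adjusted p), where 29.0% of all 15132 genes tested passed, 17.2% higher and 11.9% lower. At an unadjusted p under 0.05, for which the share of all genes was not computed, Jag1, Notch2 and Jag2 were lower and Hes1 was higher. DESeq2 called these 4 genes, and it called 32.7% of all genes tested. Jag1 and Hes1 were called by limma-voom (28.7% of all genes) and by limma on RPKM (27.8%). The main fit used edgeR's older, legacy quasi-likelihood mode. The newer mode called Notch2, Jag1 and Hes1 (30.7% of all genes). The median log2 fold change of the 10 genes was -0.07, beside -0.01 for all genes tested. The groups did not overlap for 2 of the 10 genes, Jag1 and Hes1, and for 45.9% of all genes tested.

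**Figure D1:**
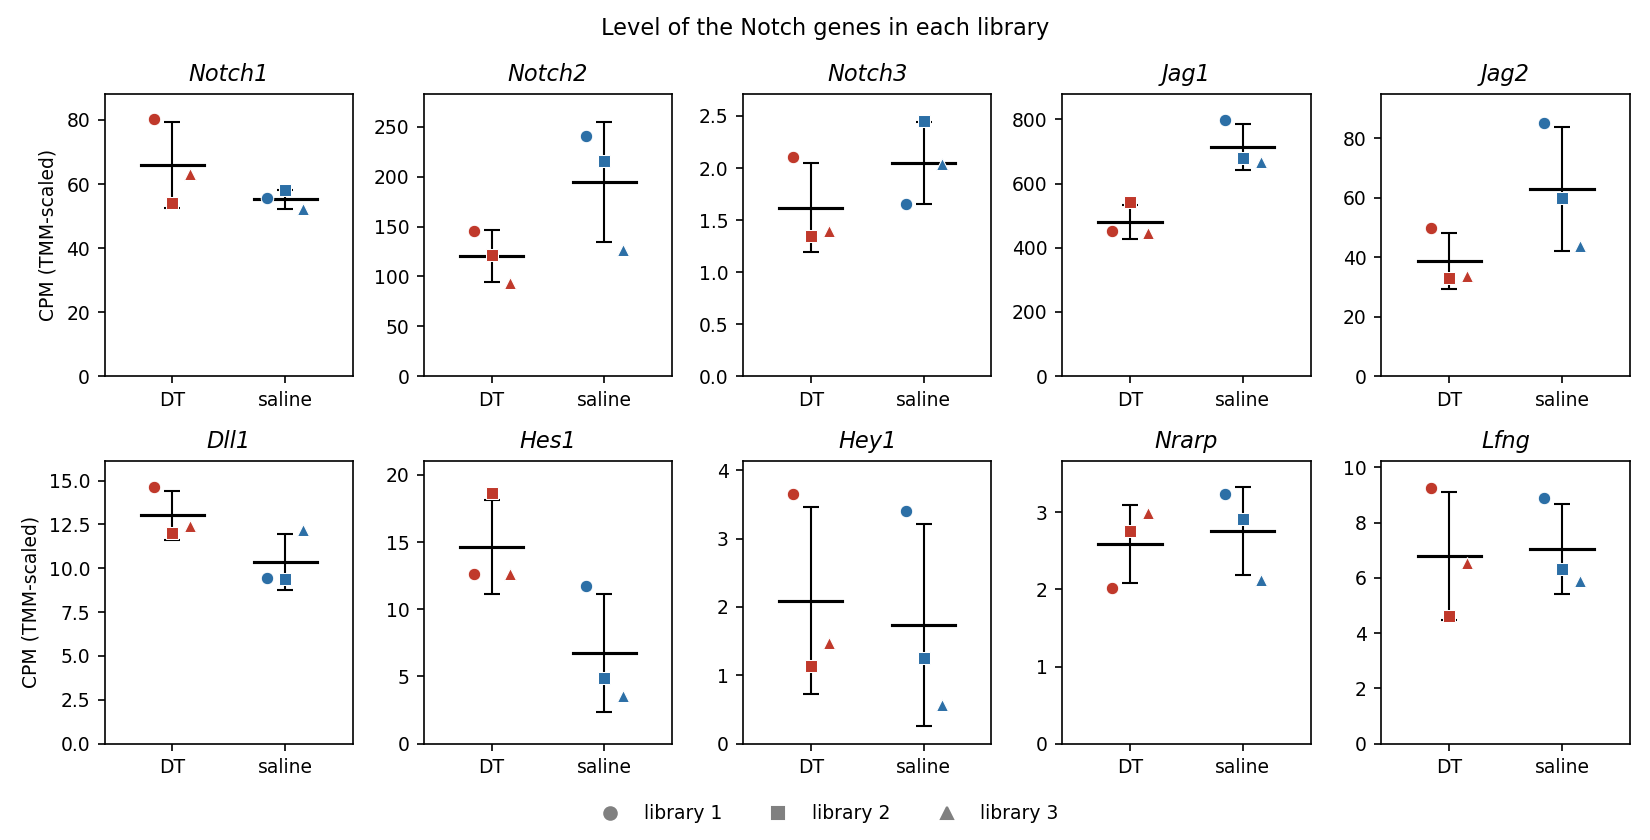
TMM-scaled CPM of the 10 genes in each of the 3 DT libraries (left, red) and 3 saline libraries (right, blue); thick lines are means, error bars are SD and marker shapes give the library number within its group, which pairs nothing between groups. The DT points of Jag1 lie between 447 and 541 CPM, below all saline points, and the DT points of Hes1 lie between 12.6 and 18.7 CPM, with saline library 1 at 11.7 CPM just under them.

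In bulk RNA, fewer cells of a type and less RNA per cell cannot be told apart, and markers of other cells moved in the same libraries. Of 4 melanocyte markers tested 3 fell, with summed levels of the 7-gene list at 64.0 to 83.5 CPM in DT and 99.6 to 140 CPM in saline. Most of this sum was Mitf, at 66.9 ± 9.70 CPM in DT and 103 ± 14.8 CPM in saline. Sox10 and Tyr had at most 2 and 3 reads in any library. Of 9 immune markers tested 4 fell and 1 rose, with sums of 126 to 157 CPM in DT and 190 to 265 CPM in saline. Cd74 held most of these sums, at 98.0 ± 9.47 CPM in DT and 152 ± 20.6 CPM in saline. Of 9 suprabasal epidermal markers 5 fell, with sums of 1152 to 1305 CPM in DT and 1415 to 1826 CPM in saline. Sbsn, which fell, and Krtdap, which did not pass (log2 0.13, edgeR adjusted p = 0.652), made up most of these sums. Of 3 fibroblast and dermal papilla markers tested 1 fell, Col1a2 (log2 -1.22, edgeR adjusted p = 0.00790). The 9-gene list summed to 26.7 to 37.0 CPM in DT and 37.7 to 50.5 CPM in saline. Lum had 0 reads in all 6 libraries. Col1a2, at 12.3 ± 3.60 CPM in DT and 28.8 ± 7.29 CPM in saline, and Crabp1 made up most of these sums. Crabp1 went the other way, at 16.3 ± 5.83 CPM in DT and 11.9 ± 2.65 CPM in saline. It did not pass (log2 0.46, edgeR adjusted p = 0.265). Col1a1 did not pass either (log2 -0.85, edgeR adjusted p = 0.191). The sums of other lists overlapped between the groups. Of 7 hair matrix and inner root sheath markers tested 2 rose and 1 fell. Their list summed to 31.9 to 41.3 CPM in DT and 30.6 to 42.4 CPM in saline. Of 4 Schwann markers tested 0 passed, with sums of 21.8 to 30.9 CPM in DT and 26.7 to 40.4 CPM in saline. Over all genes tested, 11.9% were lower and 17.2% higher. The part of these cells in the fall of Jag1 was not tested.

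Among the other ligands, Jag2 (Entrez 16450, chromosome 12 from 112907803 to 112929812), the second Jagged ligand, was at 49.7, 33.0 and 33.7 CPM in DT, against 85.2, 59.9 and 43.8 CPM in saline. The lowest saline library lay below the highest DT library. Its log2 fold change of -0.70 (SE 0.25, 95% interval -1.25 to -0.14) had an edgeR adjusted p of 0.0602, and it passed under 7 of the 16 alternative settings run, with adjusted p from 0.0212 to 0.161. Dll1 (Entrez 13388, chromosome 17 from 15367354 to 15376932), a Delta-like ligand, was at 14.6, 12.0 and 12.4 CPM in DT, against 9.45, 9.39 and 12.2 CPM in saline. Its log2 fold change of 0.33 (95% interval -0.14 to 0.80) did not pass (edgeR adjusted p = 0.265). The ligands Dll3 and Dll4 had at most 15 and 4 reads in any library and were not tested.

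Summed over Jag1, Jag2, Dll1, Dll3 and Dll4, ligand RNA came to 87.8, 104 and 86.0 RPKM in DT libraries 1 to 3, against 154, 129 and 125 RPKM in saline libraries 1 to 3. The sums did not overlap (exact permutation test, two-sided p = 0.1, the smallest that 3 against 3 libraries allow). Jag1 made up 88.9% ± 2.45 of this sum in DT and 89.9% ± 1.48 in saline (SD, n = 3 each; exact permutation p = 0.6), a difference of -0.99 percentage points that became 0.36 without DT library 1. Jag2 held 7.70% ± 2.15 in DT and 8.27% ± 1.83 in saline. Dll1 held 3.70%, 2.68% and 3.29% in DT, against 1.39%, 1.64% and 2.22% in saline, with no overlap (exact permutation p = 0.1).

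Notch2 and Notch1 carried nearly all receptor RNA, and their shares did not overlap between the groups. Notch2 (Entrez 18129, chromosome 3 from 98013538 to 98150367) was at 146, 121 and 93.6 CPM in DT, against 241, 216 and 126 CPM in saline. Saline library 3 lay within the DT range. Its log2 fold change was -0.69 (SE 0.24, 95% interval -1.22 to -0.16) with an edgeR adjusted p of 0.0527, and it passed under 10 of the 16 alternatives, with adjusted p from 0.0104 to 0.160. The lowest came from the fit with the beginning of the sample number as a block (log2 -0.66, SE 0.15), which also called Jag2 (edgeR adjusted p = 0.0436) and Hes1 (0.0364). Notch1 (Entrez 18128, chromosome 2 from 26457902 to 26503822), the receptor most studied in epidermal differentiation, was at 80.3, 54.0 and 63.3 CPM in DT, against 55.6, 58.1 and 52.2 CPM in saline. Its log2 fold change of 0.25 (95% interval -0.11 to 0.62) did not pass (edgeR adjusted p = 0.274), and DT library 2 lay within the saline range.

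As a share of summed receptor RPKM, Notch1 made up 37.4%, 32.7% and 42.3% in DT libraries 1 to 3, against 20.2%, 22.7% and 30.9% in saline libraries 1 to 3. All DT shares were above all saline shares. The means were 37.5% ± 4.78 in DT and 24.6% ± 5.61 in saline (SD, n = 3 each), a difference of 12.9 percentage points (exact permutation test, two-sided p = 0.1, the smallest these groups allow). The share does not depend on library scaling, and the difference was 10.5 to 16.03 points when a library was left out, the unit was changed or only the 4 libraries with the commoner sample number were used. The RPKM ratio of Notch1 to Notch2 was 0.610, 0.493 and 0.748 in DT, against 0.256, 0.298 and 0.458 in saline. Summed receptor RNA was 20.8, 16.7 and 14.9 RPKM in DT, against 27.3, 25.3 and 16.8 RPKM in saline, and the groups overlapped (exact permutation p = 0.2). In all, 14 shares, sums and ratios were compared in this way, and the lowest Benjamini-Hochberg adjusted p over them was 0.28 (exact permutation tests), so none passed.

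**Figure D2:**
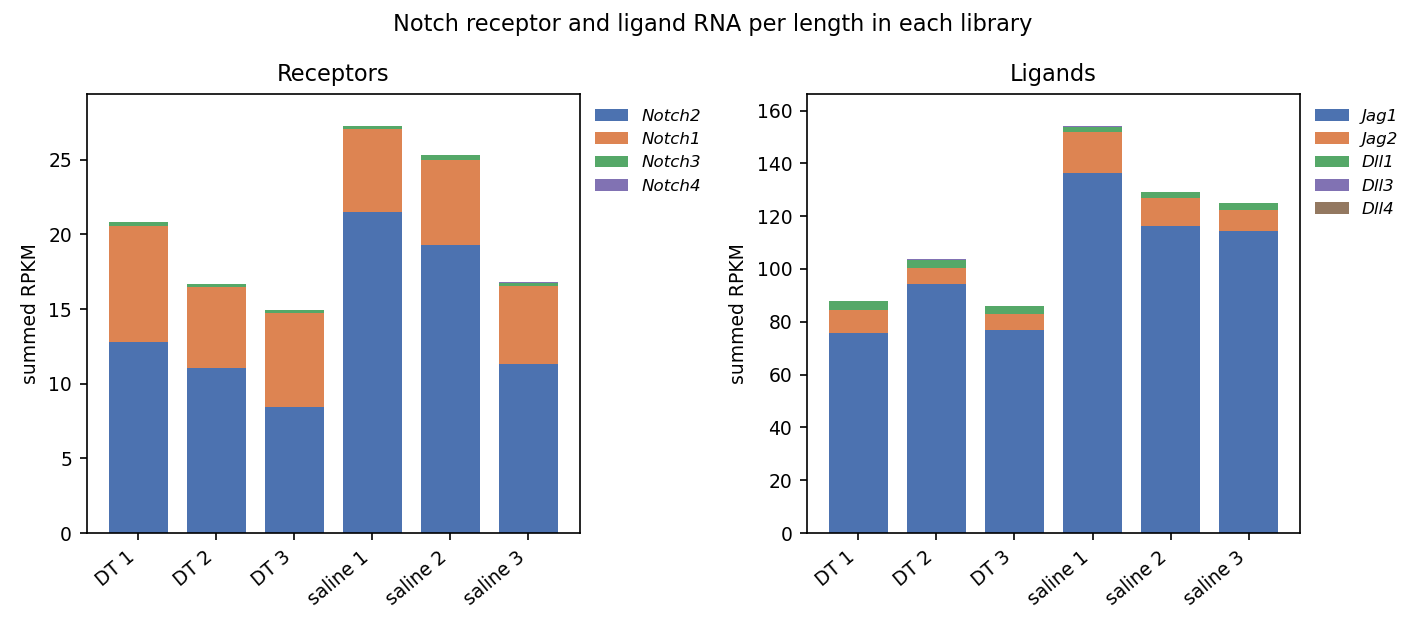
Stacked bars of RPKM per library for the Notch receptors (left panel) and ligands (right panel), with the 3 DT libraries left of the 3 saline libraries in each panel. Notch1 takes 32.7% to 42.3% of each DT receptor bar and 20.2% to 30.9% of each saline bar, while Jag1 fills most of every ligand bar.

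Notch3 (Entrez 18131, chromosome 17 from 32120820 to 32166896), a receptor known from vascular smooth muscle and pericytes, was low, with 20 to 45 reads in DT and 40 to 53 reads in saline. Its levels of 2.11, 1.34 and 1.40 CPM in DT overlapped the 1.66, 2.45 and 2.04 CPM in saline (log2 -0.34, 95% interval -1.24 to 0.57, edgeR adjusted p = 0.565). Notch4, known from endothelium, had at most 5 reads in any library. Of the 10 pericyte and smooth muscle markers, 6 did not pass the filter on low counts, and Rgs5 had 0 reads in all 6 libraries. Of the 4 tested, 3 rose, where 17.2% of all genes tested were higher. Among them was the smooth muscle actin Acta2, at 71.0 ± 42.1 CPM in DT and 0.867 ± 0.264 CPM in saline. The summed pericyte and smooth muscle list was 290 to 361 CPM in DT and 232 to 334 CPM in saline. Most of that sum was Cspg4, at 238 ± 64.5 CPM in DT and 281 ± 52.3 CPM in saline. Cspg4 did not pass (log2 -0.24, edgeR adjusted p = 0.407), so the sum hides the rise of Acta2. Des and Pdgfrb had at most 3 and 1 reads in any library. The part of such cells in the Notch3 level was not tested. The summed endothelial list was 12.0 to 19.2 CPM in DT and 6.80 to 46.5 CPM in saline.

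Hes1 (Entrez 15205, chromosome 16 from 30065357 to 30067796), a transcriptional repressor and a direct Notch target, was at 12.7, 18.7 and 12.6 CPM in DT, against 11.7, 4.90 and 3.52 CPM in saline. All DT libraries were above all saline libraries, but saline library 1 came close to the DT level. The log2 fold change was 1.12 (SE 0.40, 95% interval 0.22 to 2.02) with an edgeR adjusted p of 0.0624. Without saline library 1, the library that stood apart, it was 1.78 with adjusted p = 0.00311. Hes1 passed under 6 of the 16 alternatives, with log2 fold changes from 0.81 to 1.78 and adjusted p from 0.00311 to 0.223. Between the DT and saline library with the less common sample number the log2 ratio was 1.84, with no test.

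The other target genes were low and did not pass. Hey1 (Entrez 15213, chromosome 3 from 8663359 to 8667038), a related repressor, had 78, 17 and 37 reads in DT, against 82, 27 and 13 reads in saline. Library 1 was the highest in both groups, at 3.66 CPM in DT and 3.40 CPM in saline. Its log2 fold change of 0.27 had a 95% interval from -1.21 to 1.75 (edgeR adjusted p = 0.787). The sign turned without DT library 1 (log2 -0.41) or saline library 3 (-0.15). Nrarp (Entrez 67122, chromosome 2 from 25180758 to 25183339), a target that feeds back to limit the pathway, was at 2.02, 2.75 and 2.99 CPM in DT, against 3.23, 2.91 and 2.13 CPM in saline. Its log2 fold change was -0.09 (95% interval -0.87 to 0.69, edgeR adjusted p = 0.862), and with 41 to 78 reads per library the interval includes a fall of the size seen for Jag1. The sign turned without DT library 1 (log2 0.06) or saline library 1 (0.02).

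Lfng (Entrez 16848, chromosome 5 from 140607341 to 140615545), a fringe glycosyltransferase that alters which ligands a receptor responds to, was at 9.24, 4.63 and 6.55 CPM in DT, against 8.91, 6.34 and 5.90 CPM in saline. Every saline value lay within the DT range. The log2 fold change was -0.05 (95% interval -0.73 to 0.64, edgeR adjusted p = 0.922), with the opposite sign without DT library 2 or saline library 1 (0.13 each). Its relative Rfng did not pass either, with a log2 fold change of -0.21 (edgeR adjusted p = 0.612), and Mfng had at most 12 reads in any library.

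**Figure D3:**
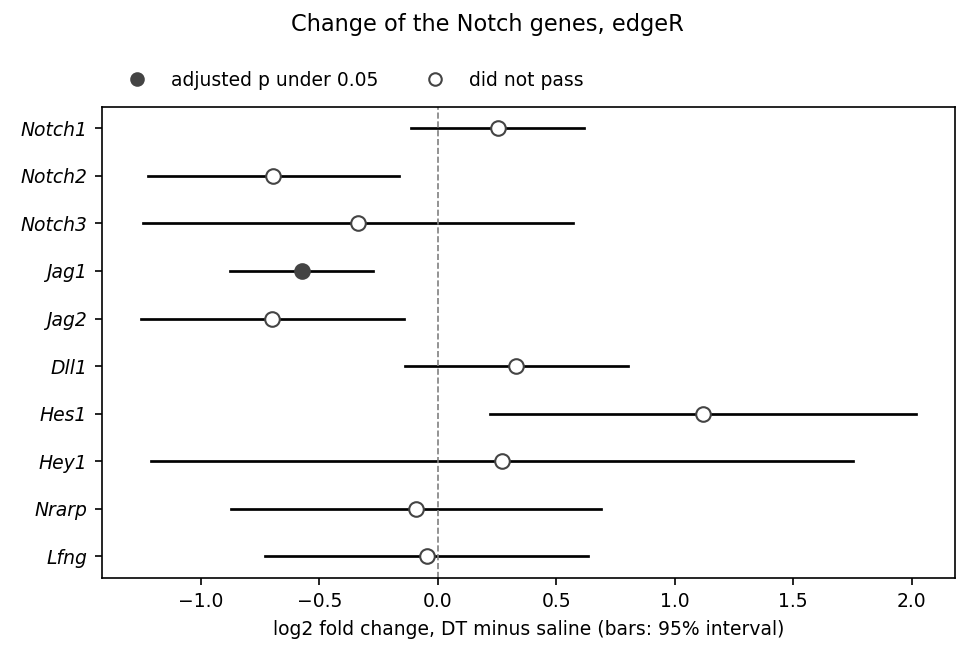
Log2 fold change, DT minus saline, of the 10 genes with 95% intervals from the edgeR fit over 6 libraries; the filled point passed an adjusted p under 0.05 and open points did not. Jag1 stands at -0.57 with an interval of -0.88 to -0.27; the intervals of Notch2, Jag2 and Hes1 also leave out 0 but their adjusted p values were 0.0527, 0.0602 and 0.0624.

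Ordered by mean RPKM, the genes ran Jag1, Notch2, Hes1, Jag2, Notch1, Dll1, Lfng, Nrarp, Hey1 and Notch3 in DT. In saline the order was Jag1, Notch2, Jag2, Notch1, Hes1, Lfng, Dll1, Nrarp, Hey1 and Notch3. Jag1 averaged 82.4 ± 10.4 RPKM in DT and 122 ± 12.2 RPKM in saline, and Notch2, next in both orders, 10.8 ± 2.19 RPKM in DT and 17.4 ± 5.35 RPKM in saline (SD, n = 3 each). In DT, the ranges of Hes1 and Jag2, Jag2 and Notch1, Dll1 and Lfng, and Nrarp and Hey1 overlapped, and the gene with the higher mean was above its neighbour in 2 of 3 libraries, so those neighbours did not differ beyond their spread. In saline the same held for Notch1 and Hes1, Hes1 and Lfng, Lfng and Dll1, Nrarp and Hey1, and Hey1 and Notch3. Notch2 was above Hes1 in all 3 DT libraries and above Jag2 in all 3 saline libraries, although the ranges over libraries overlapped. Hes1 averaged 7.996 ± 2.03 RPKM in DT and 3.65 ± 2.39 RPKM in saline.

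The wider pathway was read from a list of 51 further genes, of which 38 were tested. Of these, 1 rose and 7 fell, which is 21.1% beside the 29.0% of all genes, with 18.4% lower beside 11.9%. Their log2 fold changes were negative for 32 of 38 genes, with a median of -0.26, where 50.6% of all genes tested were negative. The groups did not overlap for 18 of the 38, or 47.4%, close to the 45.9% of all genes. Among the 4 libraries with the commoner sample number, 1 of 39 genes tested was called, Neurl1b, where 10.3% of all genes were called. The 7 genes that fell kept a negative log2 fold change there, with adjusted p from 0.0501 for Maml3 to 0.172 for Aph1c.

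Among the ubiquitin ligases that act on ligands, Neurl1b, a Neuralized family member, was at 11.7, 16.4 and 24.9 CPM in DT, against 6.47, 4.44 and 4.51 CPM in saline. It rose by 1.78 on the log2 scale (SE 0.31, edgeR adjusted p = 0.00265) and passed under all 16 alternative settings. Mib2, a Mind bomb ligase, fell, at 7.08, 4.16 and 4.95 CPM in DT, against 14.7, 13.4 and 13.5 CPM in saline (log2 -1.35, SE 0.25, edgeR adjusted p = 0.00380). Mib1, its better known relative, did not pass, with 50.7 ± 3.08 CPM in DT and 60.6 ± 8.27 CPM in saline (log2 -0.26, edgeR adjusted p = 0.212).

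In the nuclear complex, 3 of 11 genes tested fell by edgeR, or 27.3%, where 11.9% of all genes tested were lower. They were Maml2, a Mastermind coactivator, at 193 ± 4.01 CPM in DT and 290 ± 26.1 CPM in saline (log2 -0.59, edgeR adjusted p = 0.00619), its relative Maml3 at 9.91 ± 2.51 CPM in DT and 22.6 ± 9.06 CPM in saline (log2 -1.19, edgeR adjusted p = 0.0155), and the corepressor Spen at 13.4 ± 0.267 CPM in DT and 22.3 ± 2.29 CPM in saline (log2 -0.73, edgeR adjusted p = 0.0120). Maml3 missed the threshold without DT library 2 (edgeR adjusted p = 0.0601) and without DT library 3 (0.0503). Rbpj, the DNA-binding partner of all 4 receptors, was at 21.4, 19.1 and 18.5 CPM in DT, against 30.0, 28.6 and 22.7 CPM in saline. Its groups did not overlap, and its log2 fold change of -0.46 had an edgeR adjusted p of 0.0746. The SKI-interacting coregulator Snw1 and the acetyltransferase Crebbp, both abundant, had log2 fold changes of 0.33 and -0.11 and did not pass (edgeR adjusted p = 0.0792 and 0.514).

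Of the receptor cleavage enzymes, 1 of 10 fell by edgeR, close to the 11.9% of all genes tested that were lower. Aph1c, a gamma-secretase subunit, was at 7.30 ± 0.840 CPM in DT and 13.1 ± 1.14 CPM in saline (log2 -0.84, edgeR adjusted p = 0.0154). It missed the threshold without DT library 3 (edgeR adjusted p = 0.0641) and without saline library 2 (0.0613). Nicastrin (Ncstn), the member of this group with the highest mean RPKM, at 354 ± 54.0 CPM in DT and 372 ± 38.5 CPM in saline, had a log2 fold change of -0.07 (edgeR adjusted p = 0.754). Adam10, the protease that makes the first ligand-dependent cut, was at 114 ± 6.37 CPM in DT and 89.4 ± 7.39 CPM in saline (log2 0.35, edgeR adjusted p = 0.0643), with all DT libraries above all saline libraries.

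Pofut1, which adds the O-fucose that fringe enzymes extend, fell to 8.61 ± 0.923 CPM in DT, against 15.2 ± 3.88 CPM in saline (log2 -0.82, edgeR adjusted p = 0.0284). It missed the threshold without DT library 2 (edgeR adjusted p = 0.0935), DT library 3 (0.0630) or saline library 2 (0.134). The O-glucosyltransferase Poglut1 did not pass (log2 -0.17, edgeR adjusted p = 0.374). Dtx3, of the Deltex family, was at 32.0, 16.9 and 14.5 CPM in DT, against 47.0, 48.5 and 45.0 CPM in saline (log2 -1.15, edgeR adjusted p = 0.0111). Its model shares 1250 bases with that of a long non-coding RNA gene, F420014N23Rik, which had 121 to 221 reads. Counts took reads that align to 1 gene model only, and whether counting used strand is not given. Reads in the shared stretch may therefore be missing from the count of Dtx3. Among the other pathway genes called, the models of Mib2, Maml2, Maml3 and Spen also overlap other gene models. So do those of Notch1, Notch2, Notch3, Jag2 and Hey1. Notch3 shares 10673 bases with the long non-coding RNA gene Gm38585, which had 0 to 8 reads, so reads may be missing from its count. The models that overlap Notch2 and Hey1 were not among the genes listed in the libraries. Of 7 other Hes and Hey genes only Hes6 had enough reads to be tested, at 9.65 ± 4.07 CPM in DT and 16.3 ± 5.10 CPM in saline (log2 -0.75, edgeR adjusted p = 0.114). Hes5, a Notch target in other tissues, had 0 reads in every DT library, against 3, 0 and 0 in saline, and Heyl had 6, 10 and 11 reads in DT, against 1, 2 and 2 in saline.

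**Figure D4:**
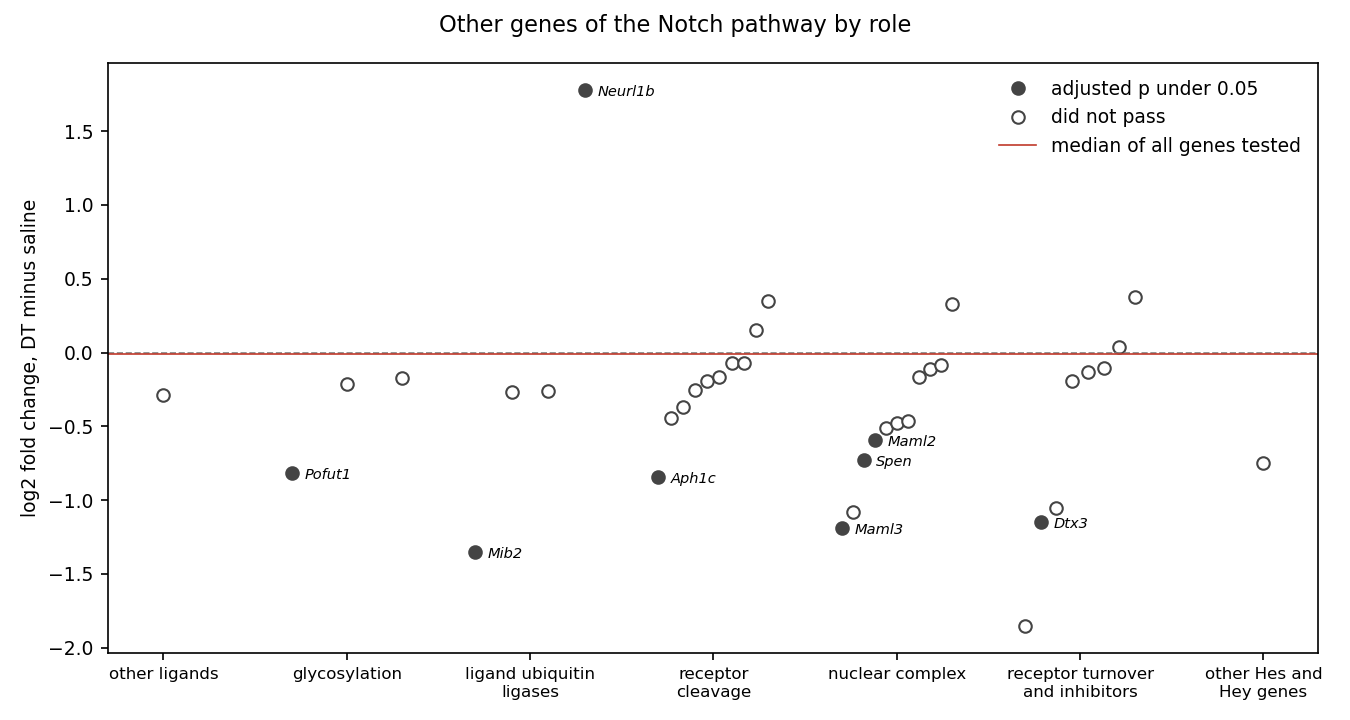
Log2 fold change, DT minus saline, of the 38 further pathway genes tested, grouped by role; filled points passed an adjusted p under 0.05, open points did not, and the red line is the median of all genes tested, at -0.01. Neurl1b, at 1.78, is the filled point above 0, and the other 7 filled points lie between -0.59 and -1.35.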

How the data were processed

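Polyadenylated RNA of the sorted cells was sequenced; per the submitters' processing notes, reads were aligned with GSNAP to GRCm38. The deposited count is the number of reads that align to 1 gene model only, per the file headers; for the aligner version, annotation and strand setting, the sources used here give nothing. The deposited RPKM was adjusted by the authors with a size factor for each library, per the file headers. Symbols and positions came from RefSeq (GRCm38.p6), which named 31049 of 36528 identifiers. Genes were filtered with filterByExpr (minimum count 10, minimum total 15), which left 15132, and scaled by TMM. They were tested with edgeR 4.0.16 (robust quasi-likelihood in its older, legacy mode, no covariates, R 4.3.3) at a Benjamini-Hochberg adjusted p under 0.05. The residual degrees of freedom were 4. The fit was tested on simulated data. DESeq2 1.42.0, limma 3.58.1, other scalings, filters and left-out libraries were alternatives. RPKM shares were compared by an exact permutation test. Libraries were numbered in record order, which pairs nothing. No pair of libraries within a group agreed within counting error (chi-square 21.5 to 65.6 for each degree of freedom). The members and lists were chosen with earlier results of these data known. Named pathway genes were those past the test and the 5 with the highest mean RPKM; Notch4, Dll3, Dll4, Mfng, Rbpj, Mib1, Adam10, Rfng, Hes5, Hes6 and Heyl, and markers singled out, were named after their values were seen.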

Additional observations from a re-analysis of the deposited data

How the results depend on the processing

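Of the 10 Notch genes, 1 was called as reported (Jag1). The number was 2 with DESeq2 size factors in edgeR (with Notch2), 3 with total count scaling, no filter or a mean count filter of 10 (with Notch2 and Jag2), and 2 with limma-voom or limma on log2(RPKM + 1) (with Hes1). It was 4 with DESeq2 and 4 with the beginning of the sample number as a block (Notch2, Jag1, Jag2 and Hes1). With edgeR's newer quasi-likelihood mode in place of the legacy mode of the main fit, it was 3 (Notch2, Jag1 and Hes1). That setting was added after the data were seen. Leaving out a library gave 0 (without DT library 3, where 1 gene was higher and 1 lower at an unadjusted p under 0.05) to 3 (without DT library 1 or saline library 3), with 2 without saline library 1 (Jag1 and Hes1). Among the 4 libraries with the commoner sample number, 1 of the Notch genes was called, Notch2 in place of Jag1, and 10.3% of all genes. Jag1 kept its direction throughout, with log2 fold changes from -0.70 to -0.51 and adjusted p from 0.00118 to 0.113.

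The further pathway list gave 8 calls as reported, 1 among the 4 libraries with the commoner sample number, and 6 to 12 when a library was left out. The 12 came without DT library 1, where 30.9% of all genes were called. The 6 came where 16.5% to 18.3% of all genes were called. With a library left out, log2 fold changes ran from -0.41 to 1.18 for Hey1, -0.25 to 0.056 for Nrarp and -0.33 to 0.13 for Lfng, and the Jag1 share difference from -2.04 to 0.36 points, so the sign of each turned with 1 library. No paired analysis was possible because the labels give no replicate numbers. Notch3, Hey1 and Nrarp had under 100 reads in every library, so only large changes of theirs could pass. The cause of these differences was not tested.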
